A study of Homo sapiens with 4 samples.

Results

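The human 45S ribosomal RNA (rRNA) gene copies and the intergenic spacers between them held 72 of the 406 DNA regions captured with the peptide SVS-1 in replicate A and 53 of the 395 in replicate B. Members were all rows of both peak lists that lie on the scaffolds chr22_KI270733v1_random and chrUn_GL000220v1, or that overlap chr21:8175000-8480000 (hg38). The rule uses the positions of the measured peaks, so every number below describes them and none is a test. A peak is a stretch of the genome where the authors called an excess of sequenced fragments, and its score is their own value, of unstated scale, used here only within its list. By length the members made up 80.3 of 417.8 kb in A (19.2%) and 121.3 of 506 kb in B (24.0%).

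SVS-1 is a cationic cell-penetrating peptide. A549 cells, an established line from a human lung adenocarcinoma, were given 15 µM of it with a biotin tag (biotin-PEG-GG-SVS-1) for 1 h at 37 °C in medium without serum. They were then trypsinised, grown overnight with serum and fixed for 15 min in 1% paraformaldehyde, and biotin-bearing chromatin was drawn out of the sheared lysate on streptavidin resin (Chem-seq). The 4 samples are 2 such captures and 2 inputs, which are lysate set aside before the resin step, and all 4 come from peptide-treated cells. The labels present A and B as biological replicates without describing separate cultures, and the inputs were not analysed here. The lists give no read numbers, so the depth behind a peak is unknown.

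Ribosomal DNA (rDNA) is a tandem repeat in which RNA polymerase I copies the 45S gene into a single precursor. The transcript runs through the 5' external spacer, 18S, the first internal spacer, 5.8S, the second internal spacer, 28S and the 3' external spacer, and the spacers are then cut away to leave the rRNAs of the ribosome. Transcription stops at terminator elements just past the 28S gene, known as Sal boxes after the SalI recognition site in them and bound by the factor TTF1. Beyond lies the long intergenic spacer, which carries repeats and further control elements up to the next promoter. Copies are nearly identical, so a sequenced fragment can align to several of them. Peaks of different copies are therefore not independent, and an SD over copies only describes their spread.

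The RefSeq tables used here (GRCh38.p14) hold no sequence for the 45S copies themselves. They do hold microRNA hairpins annotated within the unit, and these are shown because 2 of them lie inside the highest peaks of their copies and another lies just past the end of such a peak. The hairpins of MIR6724-2 (chr21:8249505-8249596, plus strand) and MIR6724-4 (chr21:8432530-8432621, plus strand) are 92 bases long, have a GC content of 83.7% and are identical, base for base, although their copies are far apart. Capitals mark the SalI site, GTCGAC in DNA, which reads the same on both strands.
MIR6724-2: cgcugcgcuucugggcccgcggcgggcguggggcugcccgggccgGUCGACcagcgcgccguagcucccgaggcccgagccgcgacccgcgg
MIR6724-4: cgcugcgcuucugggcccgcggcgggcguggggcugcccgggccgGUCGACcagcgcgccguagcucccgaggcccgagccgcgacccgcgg
Both give the same mature microRNA, shown with its seed (bases 2 to 8) in capitals.
hsa-miR-6724-5p: cUGGGCCCgcggcgggcgugggg
The site GTCGAC occurs in 0.345% of 35116 RefSeq promoter windows cut to 92 bases, in 1.35% of the same windows at their full 300 bases and in 4 of the 1562 hairpins of the table. Those 4 include the 2 hairpins printed above. The median GC content of these sets was 55.4, 58.7 and 52.1%, below the 83.7% of the hairpins shown, so the shares are no matched background. A match in a hairpin is a string of letters and no evidence of a bound factor. MIR10396B (chr21:8436324-8436374, plus strand) lies in the 5' external spacer of RNA45SN1, and MIR10396A (chr21:8987617-8987665, plus strand) lies outside the member region. Capitals mark the run of 48 bases that these hairpins share, of 51 and 49 bases in all.
MIR10396B: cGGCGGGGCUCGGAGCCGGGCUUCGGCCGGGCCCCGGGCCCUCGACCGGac
MIR10396A: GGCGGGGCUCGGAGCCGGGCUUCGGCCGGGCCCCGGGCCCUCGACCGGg

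RefSeq places 5 complete 45S genes in the member regions, each between 13309 and 13373 bp long. On chromosome 21 these are RNA45SN2 (8205988 to 8219302), RNA45SN3 (8389035 to 8402343) and RNA45SN1 (8433222 to 8446572). RNA45SN4 (122273 to 135645) was placed on the chromosome 22 scaffold and RNA45SN5 (105424 to 118780) on the unplaced one. Another 3 copies are cut short and are known by an 18S pseudogene: RNA18SP5 follows RNA45SN2, RNA18SP4 follows RNA45SN4 and RNA18SP3 follows RNA45SN5. The table gives no scaffold name, so the placement of 4 copies rests on the rule and on where peaks stand. The unit lengths bear on it directly. From one 18S gene to the next the annotation gives 45081 bp for the chromosome 22 pair and 43972 bp for the unplaced pair, and the peaks over the 45S starts were 45100 bp apart on the first scaffold and 43900 (A) and 44000 bp (B) apart on the second. On chromosome 21 the spacings of 44211 and 44210 bp were met by peaks 44100 to 44300 bp apart. Starts and ends of peaks fall on 100 bp steps in all 801 rows.

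No listed peak crosses an edge of the member region on chromosome 21. On chromosome 21 neither list has a peak before the region. The first peak inside it, at 8203801, scored 5.04 in A and 4.73 in B, and the last ended at 8451500 (4.87) in A and at 8457500 (5.43) in B. The nearest peak beyond scored 20.48 in A and 35.77 in B and began at 8986801 and 8986601. Between the truncated copy RNA18SP5 and RNA45SN3 a stretch of 125.7 kb, from the peak end at 8261100 to the peak start at 8386801, held no peak in either list. The listed peaks were thus grouped on the copies and the spacers that follow them. How much of the empty stretch holds sequence to which fragments can align was not examined.

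**Figure D1:**
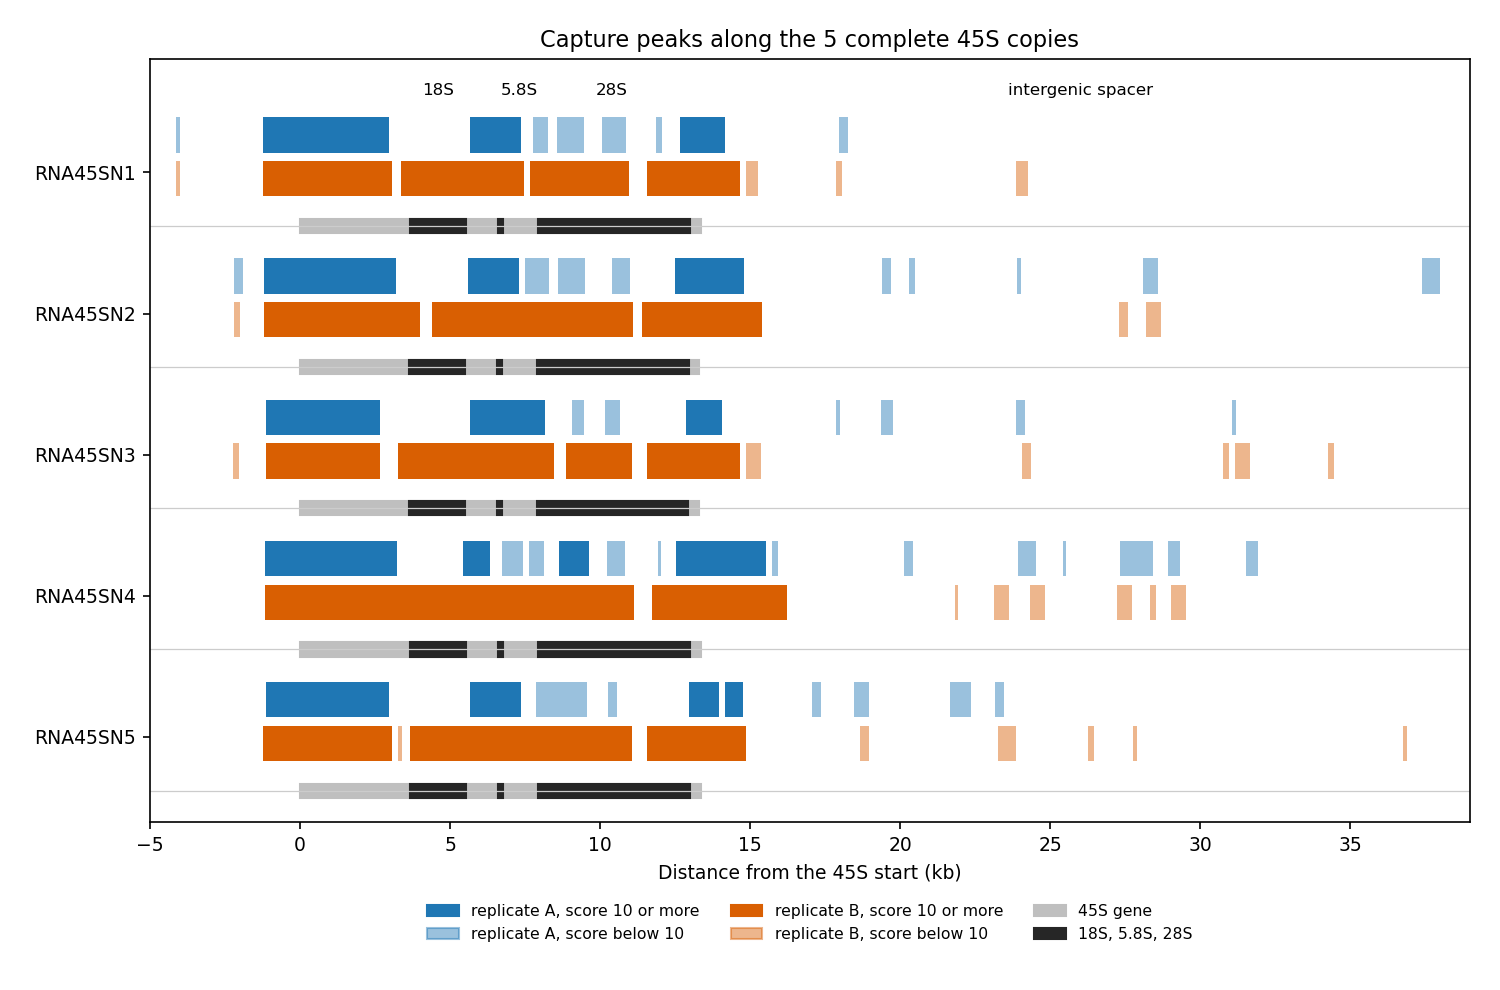
Peaks along the 5 complete 45S copies, each aligned at its 45S start (distance in kb, x axis), with replicate A in blue, replicate B in orange, paler where the score is below 10, and the 45S gene with 18S, 5.8S and 28S drawn beneath. Every copy has a broad block over its start and another over its end in both replicates, with short low-scoring peaks scattered through the spacer.

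The map of peaks along the copies shows a fixed arrangement at the 45S start. The peak over it is called the promoter peak here, although most of its length lies inside the gene. The lists give no summit, so the highest point within such a peak is unknown. Over the 5 complete copies the promoter peak began 1123 to 1221 bp before the 45S start in A and 1134 to 1223 bp before it in B. In RNA45SN1, RNA45SN2, RNA45SN3 and RNA45SN4 it began in the same 100 bp window in both replicates. The downstream edge was less even. In A it lay 2665 to 3227 bp into the 45S gene, which left 430 to 965 bp before the 18S gene uncovered in every copy. In B it lay 3078 bp in for RNA45SN1, 4012 bp for RNA45SN2, 2665 bp for RNA45SN3 and 3076 bp for RNA45SN5. RNA45SN4 stood apart in B, where a single peak of 12300 bp ran from the promoter to 11127 bp, well into 28S. It was the widest member of that list.

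Promoter peaks ranked 2 to 11 in A and 1 to 8 in B over all 8 copies. RNA45SN1 scored 91.67 in A and 149.64 in B, and RNA45SN2 scored 91.63 and 162.79. RNA45SN3 scored 88.58 and 157.67. RNA45SN4 scored 104.79 and 164.86, and RNA45SN5 89.24 and 166.15. The copies thus lay close together within each list, at 93.2 ± 6.64 in A and 160 ± 6.74 in B (SD over 5 copies). Among the truncated copies, RNA18SP5 scored 97.81 and 164.58, inside the range of the complete ones. RNA18SP4 scored 94.85 and 178.87, the latter above that range, and RNA18SP3 82.39 and 165.38, the former below it. The highest-scoring peak in the whole list of B was the one on RNA18SP4. Whether the scores take the inputs into account is not given. A high rank is therefore no measure of capture relative to the amount of that DNA in the cells.

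Upstream of the promoter peak a minor site about 2 kb before the 45S start was called on chromosome 21 only. RNA45SN2 had it in both replicates, at 5.04 in A and 4.73 in B, RNA45SN3 in B at 4.34 and RNA18SP5 in B at 4.79. A further single window at chr21:8429101-8429200, between -4.121 and -4.022 kb from RNA45SN1, was called in both lists at 4.10 and 4.25. These scores lie below the medians of their lists, 6.73 in A and 6.94 in B.

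Within the transcribed gene the replicates differed by part. Peaks covered 55.8% ± 4.75 of the 45S gene in A (SD over 5 copies, range 48.9 to 60.2%) and 92.7% ± 2.68 in B (88.7 to 95.5%). The gap was widest over 18S, which encodes the rRNA of the small ribosomal subunit. In A that gene was uncovered in RNA45SN1, RNA45SN2, RNA45SN3 and RNA45SN5 and covered over 5.30% of its length in RNA45SN4. In B it was fully covered in RNA45SN1, RNA45SN3 and RNA45SN4, over 98.8% in RNA45SN5 and over 78.6% in RNA45SN2. The ranges of A and B do not overlap.

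**Figure D2:**
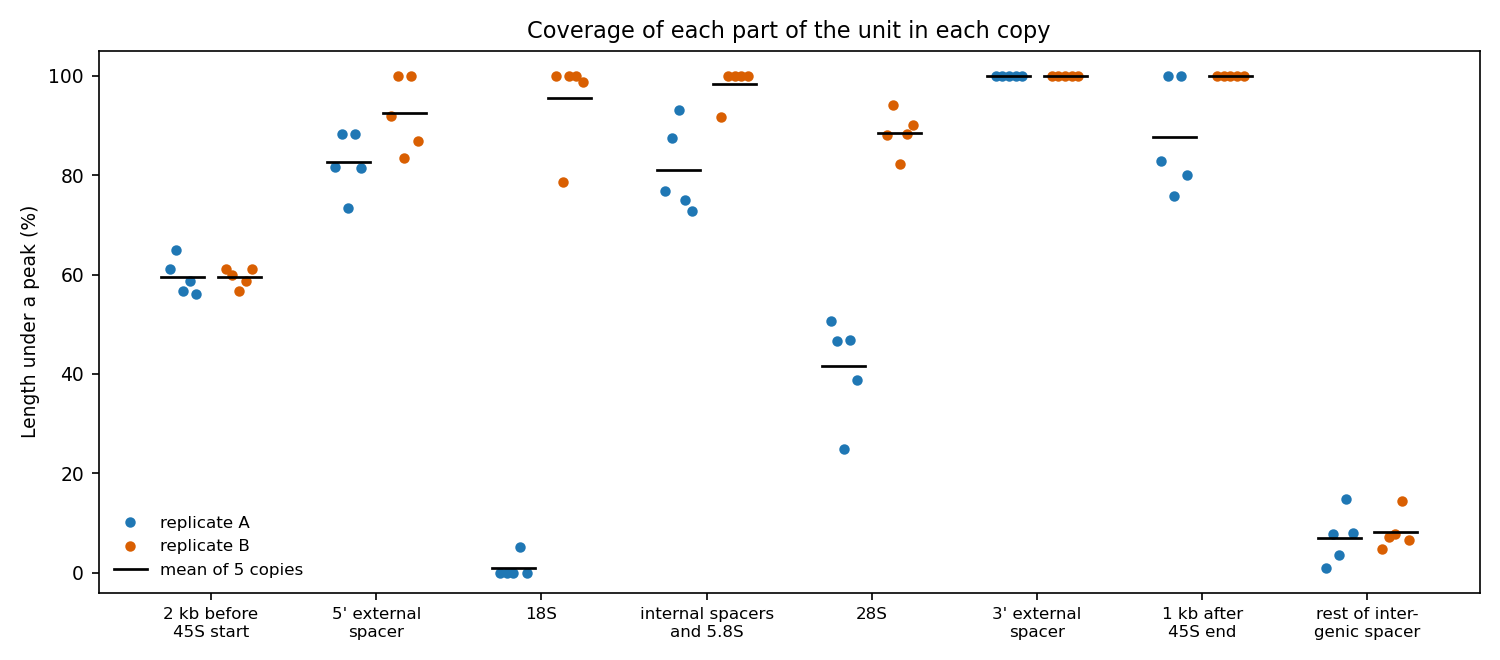
Length under a peak, in percent (y axis), for each part of the unit (x axis), with 1 point per complete copy, replicate A in blue, replicate B in orange and a line at the mean of the 5 copies. Both replicates lie at 100% over the 3' external spacer and below 15% over the rest of the intergenic spacer, and they separate over 18S and 28S.

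The plot of coverage by part places the other parts between these extremes. The 2 kb before the 45S start were covered to 59.5% ± 3.62 in A and 59.5% ± 1.87 in B. This is the promoter peak alone except in RNA45SN2, where the minor site brought the value to 65.0% in A and 60.0% in B. The internal spacers with 5.8S, the small rRNA that pairs with 28S, were covered to 72.8 to 93.1% in A and 91.7 to 100% in B. The gene for 28S, the large rRNA that holds the peptidyl transferase centre, was covered to 24.8 to 50.7% in A and 82.2 to 94.1% in B, again without overlap. The 3' external spacer was the 1 part under a peak along its whole length in all 5 copies and both replicates.

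The uncovered stretches recurred from copy to copy. In A the longest one in every copy began 2666 to 3228 bp after the 45S start and ended at 5427 to 5678 bp, so it took in the end of the 5' external spacer and 18S, which lies at 3631 to 5526 bp over the copies. No copy had a peak of A between 3228 and 5427 bp. In B the longest uncovered stretch was 400 to 600 bp, and it lay over 28S in RNA45SN1, RNA45SN4 and RNA45SN5. A window of 285 bp inside 28S, from 11128 to 11412 bp, was free of peaks in all 5 copies of both replicates, and no other stretch of the 45S gene was.

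At the terminator side every complete copy had a peak that began inside 28S, crossed the 45S end and ran into the intergenic spacer. In A it started 17 to 480 bp before the 28S end and reached 620 to 2155 bp past the 45S end. In B it started earlier, 1280 to 1541 bp before the 28S end, and reached 1328 to 2855 bp past the 45S end. The reach was longer in B in each of the 5 copies. It was longest in RNA45SN4 in both replicates, at 2155 and 2855 bp, followed by RNA45SN2 at 1498 and 2098 bp.

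Scores at the terminator side varied more among copies than those of the promoter peaks. RNA45SN4 had the highest, 63.09 (rank 15) in A and 135.92 (rank 9) in B. RNA45SN1 came next with 50.64 (rank 20) and 98.91 (rank 10), then RNA45SN2 with 32.87 (rank 35) and 98.40 (rank 11). RNA45SN5 had 19.79 (rank 52) and 80.16 (rank 13), and RNA45SN3 was last with 14.42 (rank 72) and 49.14 (rank 23). Taken by the peak that crosses the 45S end, the 5 copies had the same order in both lists, with RNA45SN1 and RNA45SN2 nearly tied in B. That order depends on the peak chosen: RNA45SN5 has a second peak of A within 1 kb of its 45S end that scored 33.56, and with it RNA45SN5 stands above RNA45SN2 in A. RNA45SN4 is first and RNA45SN3 last either way. The mean was 36.2 ± 20.5 in A and 92.5 ± 31.6 in B (SD over 5 copies). For the promoter peaks the order in A was that of the peaks crossing the 45S end, with RNA45SN1 and RNA45SN2 again nearly tied. In B it was another, led by RNA45SN5 and with RNA45SN1 last.

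**Figure D3:**
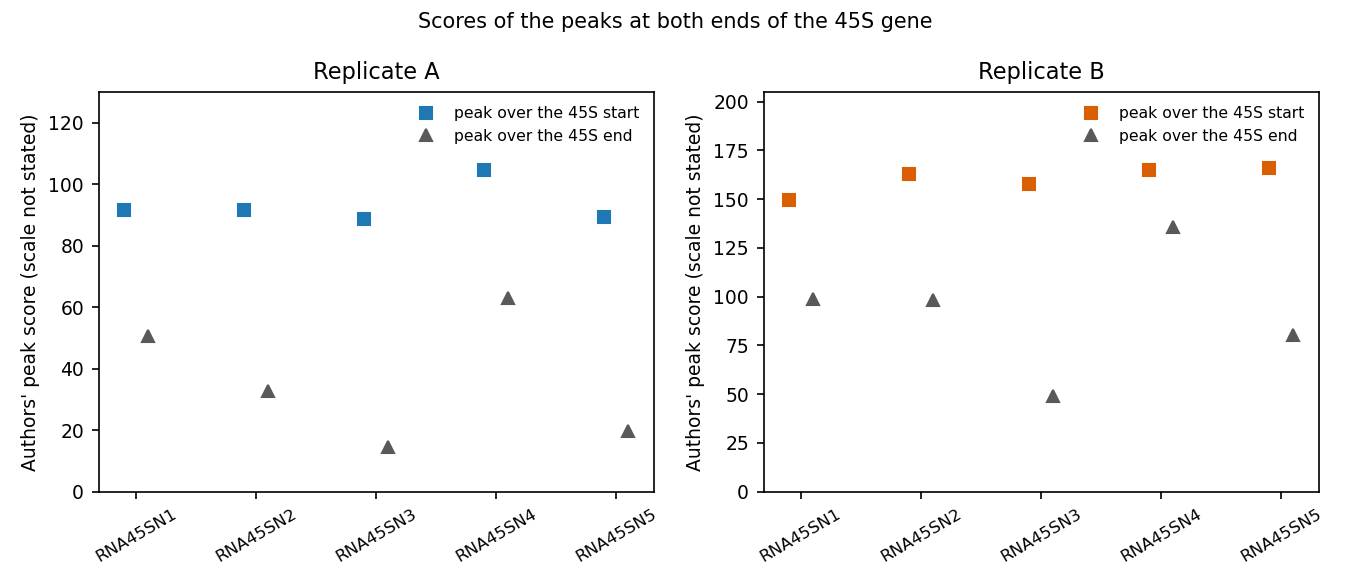
The authors' score (y axis, separate scale for each replicate) of the peak over the 45S start (squares) and of the peak over the 45S end (triangles) in each complete copy (x axis). The end peak lies below the start peak in each copy, and RNA45SN4 has the highest end peak and RNA45SN3 the lowest in both panels.

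In each copy and each list the score at the 45S end was below that at the 45S start, as the plot of scores at both ends shows. Some copies had more peaks just beyond the terminator peak. RNA45SN5 had the strongest in A, 821 to 1420 bp past the 45S end with a score of 33.56, and in B a single peak spans that place. In RNA45SN4 a peak of A scored 6.22 at 2356 to 2555 bp past the end. In B such peaks scored 6.13 in RNA45SN1 (1529 to 1928 bp) and 8.77 in RNA45SN3 (1558 to 2057 bp). RNA45SN2 had none in either list.

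Aligned at the 45S start, 6838 bp of the unit lay under a peak in all 5 complete copies and both replicates, in 7 stretches. The promoter stretch begins 1123 bp before the 45S start and ends at 2665 bp, so most of it lies in the 5' external spacer. It was the longest at 3789 bp and made up 55.4% of the 6838 bp. The stretch at the terminator side, from 12977 to 13976 bp, was next at 1000 bp (14.6%) and joins the 3' external spacer and the first bases of the intergenic spacer. The 28S gene ends at 12945 to 13007 bp over the copies. The stretch thus holds its last bases in RNA45SN1, RNA45SN4 and RNA45SN5 and none of it in RNA45SN2 and RNA45SN3. Between them a stretch of 649 bp lies in the first internal spacer (5679 to 6327 bp) and one of 585 bp in the second, from the last bases of 5.8S on (6728 to 7312 bp). Shorter ones lie at the start of 28S (251 bp, 7877 to 8127 bp) and within it (400 bp at 9066 to 9465 bp, and 164 bp at 10413 to 10576 bp). No base of 18S was among them.

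**Figure D4:**
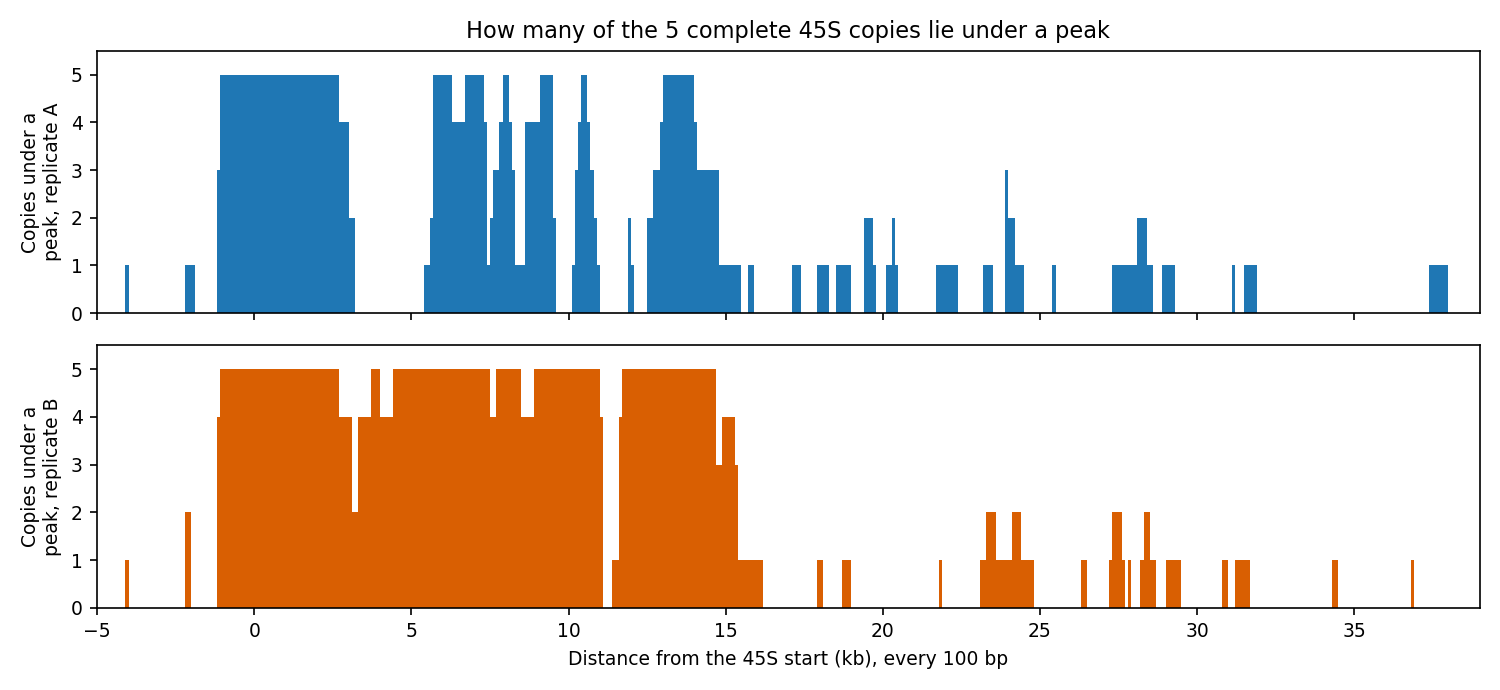
Number of the 5 complete copies under a peak (y axis) in each 100 bp window by distance from the 45S start (kb, x axis), for replicate A (blue) and replicate B (orange). Both reach 5 copies over the promoter and over the 45S end, and beyond 16.3 kb no window has more than 3 copies in A or 2 in B.

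The count of copies per window shows that A set this common length: with A alone it was the same 6838 bp, and with B alone it was 13040 bp in 6 stretches. On the 3 copies of chromosome 21, which need no scaffold placement, it was 7674 bp in 6 stretches, with the promoter stretch at 3800 bp and the terminator stretch at 1200 bp. With the 3 truncated copies added and positions counted from the 18S start up to the 28S start, the promoter stretch was 3776 bp and ended at position -966 from the 18S start. Both internal spacers again held a stretch, of 600 and 489 bp.

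The intergenic spacer, taken from 1 kb after the 45S end to 2 kb before the next copy, was thinly covered: 7.08% ± 5.24 in A and 8.14% ± 3.71 in B (SD over 5 copies). RNA45SN4 had the most in both replicates, 14.8 and 14.5%. RNA45SN1 had the least, 1.08 and 4.77%. RNA45SN2 had 7.88 and 7.12%, RNA45SN3 3.59 and 7.74% and RNA45SN5 8.04 and 6.59%. The ranges of A and B overlap here, unlike those over 18S and 28S. These percentages include the tails of the terminator peaks, which reach past 1 kb in A in 2 copies and in B in all 5.

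Along the spacer, coverage was highest next to the gene and lowest at the far end, without a steady fall between. Between 1 and 5 kb after the 45S end, where tails of the terminator peaks are included, the mean was 14.9% in A and 26.3% in B. From 5 to 10 kb it was 10.3 and 2.90%, and from 10 to 15 kb 9.87 and 12.9%, a rise in B. From 15 to 20 kb it was 5.01 and 7.01%. The last part of the spacer was nearly empty, at 2.40 and 1.20% from 20 to 25 kb and 0.516 and 0.964% from there to 2 kb before the next copy. Over 20 kb from the 45S end A had 2 peaks in all and B had 3, the shared window at 8429101 included.

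By midpoint, 22 peaks of A and 21 of B lay in the spacer and were tied to the copy before it. The window at 8429101, called once in each list, also lies in the spacer after RNA45SN3, at 40.066 to 40.165 kb, but was tied to RNA45SN1 as the copy within 5 kb. It is left out of the counts by midpoint, of the sites and of the plot of spacer peaks, and with it the counts are 23 and 22. Apart from the peak of RNA45SN5 that scored 33.56, the spacer peaks scored 4.01 to 6.90 in A and 4.04 to 8.77 in B. Their medians were 4.81 and 4.78, also below the medians of the lists. They were short, with a median width of 300 bp in both lists.

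Joined by distance from the 45S start, the 43 spacer peaks formed 20 sites. With that window as a site of its own there are 21. Of the 20, 12 were found in a single copy and 8 in at least 2, and 7 sites had peaks of both replicates. The site at 23.128 to 24.827 kb was the only one with peaks of all 5 copies, 9 in number. A had it in RNA45SN2, RNA45SN3, RNA45SN4 and RNA45SN5, and B in RNA45SN1, RNA45SN3, RNA45SN4 and RNA45SN5, so 3 copies had it in both. Its scores were low, 4.01 to 5.84, and at most 3 copies of A shared a base there, between 23.928 and 24.012 kb, and at most 2 of B. The site is a chain of overlapping peaks: that of RNA45SN2, from 23.913 kb, shares no base with those of RNA45SN5, which end by 23.876 kb.

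The site at 27.228 to 28.712 kb was the other one found in more than 2 copies. It held 7 peaks in RNA45SN2, RNA45SN4 and RNA45SN5, scoring 4.20 to 7.73, and RNA45SN2 and RNA45SN4 had it in both replicates. Further sites with the same copy in both replicates were those at 17.866 to 18.278 kb (RNA45SN1), 18.477 to 18.976 kb (RNA45SN5) and 28.928 to 29.527 kb (RNA45SN4). The spacers differ in length, 30615 to 31712 bp, so positions were also counted back from the next copy in the 4 copies that have one. Of 18 sites 7 then lay in more than 1 copy, and the one at -21.157 to -19.822 kb, with 7 peaks, lay in all 4.

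**Figure D5:**
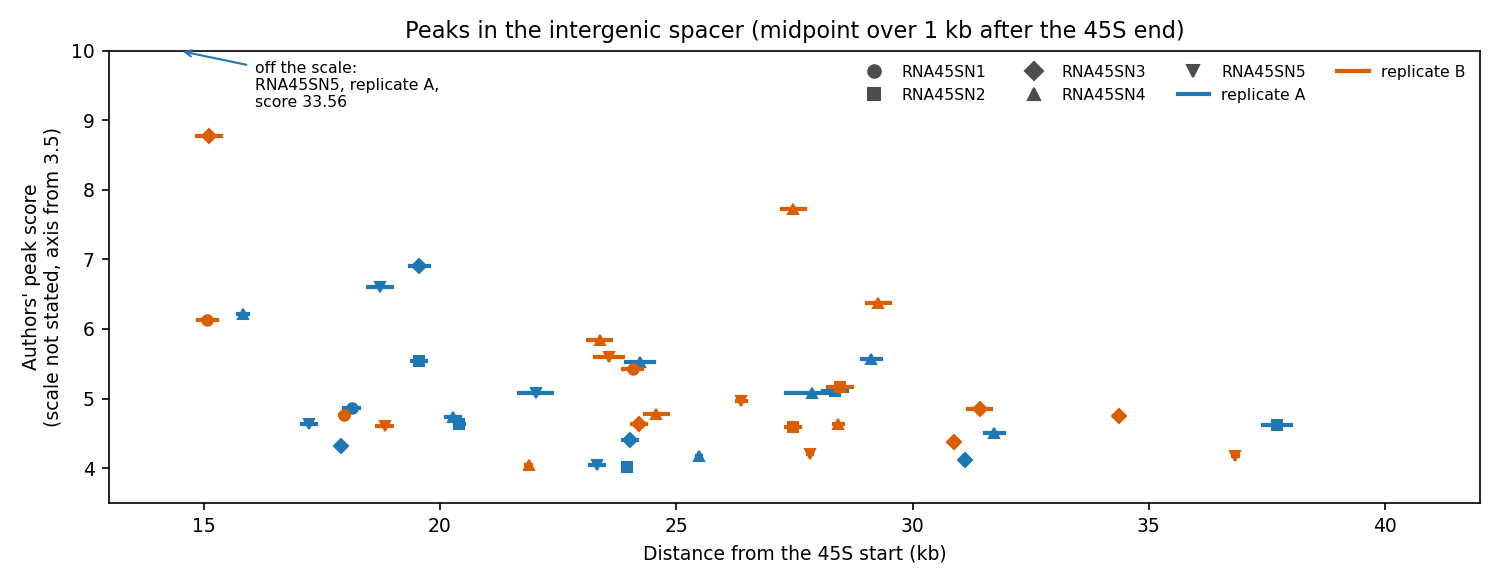
Score (y axis, from 3.5 to 10) and extent (bars, kb from the 45S start, x axis) of each spacer peak, with a symbol for each copy, replicate A in blue and replicate B in orange. Peaks of several copies gather near 24 and 28 kb at scores below 8, and the peak of RNA45SN5 scoring 33.56 lies off the scale.

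The plot of spacer peaks shows 3 beyond 32 kb. In that part lie single peaks of RNA45SN2 in A (37.413 to 38.012 kb, 4.62), of RNA45SN3 in B (34.266 to 34.465 kb, 4.75) and of RNA45SN5 in B (36.777 to 36.876 kb, 4.18). None of these sites was found in another copy or in the other replicate.

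Peaks of A overlapped a peak of B by at least 1 bp in 60 of 72 members (83.3%, 95% Clopper-Pearson interval 72.7 to 91.1), where 66.3% of all peaks of A did. For B it was 35 of 53 (66.0%, 51.7 to 78.5), where 65.6% of all its peaks did, so the share in B is that of its list. The intervals treat peaks as independent, which those of nearly identical copies are not. They cover counting error at best and test nothing. The share differed between parts of the unit. From 2 kb before the 45S start to 1 kb after its end, 31 of 31 peaks of A and 16 of 17 of B were shared. In the spacer it was 10 of 22 in A (45.5%) and 9 of 21 in B (42.9%), or 11 of 23 (47.8%) and 10 of 22 (45.5%) with the window at 8429101. Spacer peaks scoring below 5 were shared in 3 of 12 cases in A and 5 of 13 in B (4 of 13 and 6 of 14 with that window), and peaks of the same scores outside the members in 21.8% and 36.5%. From 5 to below 10, members of all parts were shared in 25 of 28 cases in A and 4 of 9 in B. Peaks of those scores outside the members were shared in 73.5% and 79.5%. The 31 and 17 peaks at the gene had median scores of 11.7 and 80.16. Outside the members, peaks scoring 10 or more were shared in 97 of 98 cases in A and 88 of 119 in B. Peaks of B covered 88.7 to 95.5% of each 45S gene, so for peaks of A there an overlap of 1 bp was nearly fixed. Whether position or score set the shares was not tested. All 12 unshared members of A lay in the spacer, and of the 18 in B 12 did, 4 lay on truncated copies, 1 in the 5' external spacer and 1 more than 2 kb before a 45S start.

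Edges matched less well than positions. When at least 50% of both peaks had to overlap, 14 of 72 members of A (19.4%) and 14 of 53 of B (26.4%) were shared, below the 41.1 and 42.3% of all peaks. In length, the 74.7 kb under a peak of both replicates were 93.0% of the member length of A and 61.6% of that of B. Single wide peaks of B cover several narrower ones of A: the 45S gene carried 5 to 8 peaks per copy in A and 2 to 4 in B.

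The 3 truncated copies followed the same pattern as far as they go. The 18S pseudogenes were covered over 0% (RNA18SP5), 0% (RNA18SP4) and 6.31% (RNA18SP3) of their length in A, and over 78.5, 100 and 100% in B. The 5.8S pseudogenes RNA5-8SP10, RNA5-8SP9 and RNA5-8SP8 were covered over 100, 100 and 96.8% in A and fully in B. After the promoter peak, RNA18SP4 carried a peak of B from the 18S start to 7.388 kb past it, scoring 29.28, and RNA18SP3 a like one to 7.350 kb, scoring 29.20. On RNA18SP5 the same part was split into peaks scoring 7.82, 18.37 and 16.77. Past these, B had a peak at 7.889 to 8.788 kb on RNA18SP4 (10.66), within which a peak of A scored 4.45. On RNA18SP3 B had one at 7.851 to 8.650 kb (12.03) that no peak of A met, the highest unshared member.

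Of 13 other genes annotated in the chromosome 21 region, 8 had a peak of A and 9 a peak of B. MIR6724-1, MIR6724-2, MIR6724-3 and MIR6724-4, whose hairpins lie between positions -692 and -582 from the 45S start, were all fully inside a promoter peak in both replicates. So was MIR3648-1, at 2485 to 2664 bp in RNA45SN2. MIR10396B, printed above, lay just outside: the promoter peak of RNA45SN1 ended 123 bp before its hairpin in A and 23 bp before it in B. In the spacer after RNA45SN3, the pseudogene CDC27P10, a relic of the gene for an anaphase-promoting complex subunit, held 1 peak of A (4.12) and 3 of B (highest 4.85). These peaks covered 1.18% of CDC27P10 in A and 10.7% in B. The related CDC27P9 and CDC27P11, both annotated as shorter than CDC27P10, and the long non-coding RNA LOC124904993 held none in either list.

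The same pair of microRNA families that lies in the 5' external spacer is annotated once more outside the members, on chromosome 21 as MIR3648-2 and MIR10396A. From start to start these genes are 618 bp apart, against 617 bp for MIR3648-1 and MIR10396B in the unit, each counted from its own 45S start. It held 1 peak in each list, at 8986801 to 8987600 in A (20.48, rank 50) and at 8986601 to 8988300 in B (35.77, rank 28). The peak of A ended 16 bp before the MIR10396A hairpin and the peak of B covered it. Of 23 pseudogenes of 18S, 5.8S or 28S outside the members, a list drawn up after the peak lists had been opened, 0 had a peak within 5 kb in A and 0 in B. Of all 59632 genes with a place on a chromosome, 0.144% had one in A and 0.131% in B, so a list of this size would seldom hold any.

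Genes that serve rDNA from elsewhere in the genome were not among the captured regions. Of 48 genes for RNA polymerase I subunits, for its initiation, termination and chromatin factors (such as UBTF, RRN3 and TTF1) and for nucleolar proteins (such as NCL, NPM1 and FBL), 0 had a peak within 5 kb in A and 0 in B. At the shares of all genes just given, a list of this size would seldom hold any either. The 17 genes of the 5S rRNA, the rRNA made by RNA polymerase III from its own cluster on chromosome 1, also had 0 in both.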

How the data were processed

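The members and gene lists were chosen with earlier results of these data known. Per the submitters' processing notes, which name tools without their roles, bcl2fastq 2.17, Trimmomatic 0.36 and Bowtie2 2.2.5 were used and the build was hg38. Not given in the sources used here are the peak caller, its threshold, the role of the inputs and the handling of reads with several alignments, which bears on every comparison between copies. The deposited score is the authors' value per peak, with 1 list per capture library. Positions were counted from 1, with both ends included. Scores were not divided between lists.

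Copies were aligned at the 45S start of RefSeq (GRCh38.p14). In truncated copies it was set 3654 bp before the 18S start, the median of the 5 complete ones, and RNA45SN1, with no annotated next copy, was given the median unit of 44193 bp. A peak belongs to the part holding its midpoint, or to the next copy within 5 kb of its start. Named genes are the 45S genes and parts, all other genes in the chromosome 21 region, and the fixed lists. No test was run. Alternatives were another overlap limit, only peaks at or above the list's median score, chromosome 21 alone and each replicate alone. Stretch finding was run on simulated peaks planted at the same position in every copy and both replicates, and recovered every planted stretch in 20 of 20 runs. This checks the code only, since edges of the real peaks vary between copies. Analysis used Python 3.11.15, numpy 2.4.6, scipy 1.17.1 and matplotlib 3.10.9.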

Additional observations from a re-analysis of the deposited data

How the results depend on the processing

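No paired analysis was possible because no peak list of the inputs was used here and no test was run. The 16 coverage values with a replicate left out were set against the SD of the same 2 replicates, a limit they cannot pass, so they say nothing about stability and are given as ranges. Of the other 32 alternative values, 19 stayed within 1.5 times (counts) or within the interval or SD of the value, and 13 moved. For coverage this limit was again the SD of the 2 replicates, 66.8 points for 18S and 33.2 for 28S but 0 for the 2 kb before the 45S start. Coverage of 18S and 28S could thus hardly move, while 58.9 against 59.5% before the 45S start counted as moved. The split therefore says little about the stability of coverage. With only peaks at or above the median score of their list, members numbered 39 in A and 28 in B, 97.4% and 82.1% of them were shared, the 2 kb before the 45S start were covered to 58.9% and the rest of the spacer to 2.70% (7.61% with all peaks, mean of A and B). With chromosome 21 alone, members numbered 36 and 29, and those parts were covered to 60.1 and 5.36%. With an overlap of 50% of both peaks, 19.4% and 26.4% were shared. Leaving out a replicate gave a length under a peak in every copy of 6838 to 13040 bp, and a mean coverage of 1.06 to 95.5% for 18S, 41.5 to 88.5% for 28S, 82.6 to 92.4% for the 5' external spacer, 81.0 to 98.3% for the internal spacers, 87.7 to 100% for the 1 kb after the 45S end and 7.08 to 8.14% for the rest of the spacer. Thus 18S and 28S moved most between the replicates. Counting spacer sites back from the next copy was added after the data were seen. The lists hold no depth, so an uncovered stretch is one where no peak was listed.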
